A study of Drosophila melanogaster with 17 samples.

Results

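The 3′ ends of miRNAs in Drosophila Schneider 2 (S2) cells were examined for bases that the hairpin does not encode. Members were the positions at nucleotide 21 or later of each miRNA arm, counted from the arm's 5′ end, with at least 200 reads in a library. Of 4142 arm positions in all, 1107 lay at nucleotide 21 or later, and 482 of them reached 200 reads in some library. At each position the reads with each base other than the hairpin's were divided by all reads that reached that position, so that shorter reads did not enter the rate. This ratio is called the untemplated share.

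S2 cells, a wild-type embryonic fly line, were grown in medium with 10% FBS at 25 °C and given 500 µM 4-thiouridine (s4U) for 0.25, 0.5, 1, 3, 6, 12 or 24 h, or none (0 h). RNA was alkylated with iodoacetamide (IAA) and split, and small RNAs of 18 to 30 nt were sequenced either directly (unoxidised, 8 libraries) or after NaIO4 oxidation (oxidised, 8 libraries at the same times). A further unoxidised library had no s4U and no IAA. Each group therefore holds 1 library per labelling time and no repeats of 1 condition, so the SDs below and the p-values measure the spread between these libraries.

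Some miRNA 3′ ends are extended after processing. In flies the terminal uridylyltransferase Tailor adds U, with a preference for mirtrons, the miRNAs made from short spliced introns that end in AG. Small RNAs bound by Ago2 receive a 2′-O-methyl group at the 3′ end from Hen1, which protects that end from periodate. Alkylated s4U is read as C, so that C at a templated U marks RNA made during labelling.

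The sequences below are the arms whose 3′ positions carry the results. They were read from the hairpins in the deposited tables, 5′ to 3′, and continue past the usual 3′ end into the hairpin. Capitals mark the seed (nt 2 to 8) and the templated base at 3′ positions chosen by their U or A share or its change. Those named for A include nt 21 and nt 22 of miR-11-3p, nt 25 of miR-34-5p and nt 22 of bantam-5p. They also include nt 23 of miR-279-3p, miR-9c-5p and miR-283-5p.
miR-1003-3p: uCUCACAUuuacauauucacagGc
miR-1006-3p: uAAAUUCGauuucuuauucauagG
miR-965-3p: uAAGCGUAuagcuuuuccccuuAa
miR-995-3p: uAGCACCAcaugauucggcuuCgu
miR-970-3p: uCAUAAGAcacacgcggcuauAac
miR-11-3p: cAUCACAGucugaguucuugCUGa
miR-279-3p: uGACUAGAuccacacucauuaaUa
miR-9c-5p: uCUUUGGUauucuagcuguagaUu
bantam-5p: cCGGUUUUcgauuugguuugaCuG
miR-34-5p: uGGCAGUGugguuagcugguuGugU
miR-305-5p: aUUGUACUucaucaggugcucugG
miR-283-5p: aAAUAUCAgcugguaauucuggGa
No pair of these 12 arms had the same seed. Of the 38 named arms whose sequence was read, miR-11-3p had the seed AUCACAG in common with miR-2c-3p, miR-2b-1-3p, miR-13b-2-3p and miR-2a-1-3p, miR-279-3p had GACUAGA in common with miR-996-3p, and miR-995-3p had AGCACCA in common with miR-998-3p. By the BDGP6 annotation the mirtron hairpins of miR-1003 (chr3R:24658605-24658660, + strand) and miR-1006 (chr2L:16724795-16724858, − strand) lay in introns of CG6695 and VhaSFD. The hairpin of miR-11 (chr3R:21622497-21622571, − strand) lay in an intron of E2f1, that of miR-9c (chr2L:16697924-16698015, + strand) in an intron of grp, and that of miR-283 (chrX:15507956-15508055, + strand) in an intron of Gmap. Those of bantam (chr3L:642208-642288, + strand), miR-34 (chr3R:10100936-10101034, + strand) and miR-305 (chr2L:7425972-7426044, + strand) lay within no protein-coding gene on their strand. Non-coding host genes were not looked for.

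The unoxidised libraries held 10321559 to 13199979 miRNA reads and the oxidised ones 1386443 to 5610093. At least 200 reads in every library of the group were present at 321 positions of 97 arms without oxidation, at 175 positions of 66 arms with it and at 162 positions of 62 arms in both. The S2 identity of the cells was checked against arms, of which 8 of 8 S2 arms were listed, at 6971 to 147021 RPM (reads scaled to a common library size), and 2 of 8 arms of other cell types, 1 of them at 31.9 RPM and 1 listed after oxidation only. The unoxidised libraries at 0.5, 1, 3 and 6 h stood apart at 3′ ends. Their mean untemplated G share was 2.16%, 2.64%, 1.69% and 5.04%, against 0.466% to 0.778% at the other 4 times, 0.452% in the library without IAA and at most 0.257% in any oxidised library. The oxidised values cover 119 positions and the others 215. Over the 110 shared positions these 4 libraries had 0.748% to 2.84%. There the other 4 unoxidised times had 0.145% to 0.258% and the oxidised libraries 0.143% to 0.277%. What raised G there was not tested, and the results are given below with and without these 4 times where they change.

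Untemplated U was rare up to the usual 3′ end of an arm and common just beyond it. Over the 211 unoxidised positions whose templated base is not U (90 arms), the median U share was 0.331%, 72 positions had at least 1%, 42 had at least 10%, and 13 had over 50% in every library. By nucleotide, the median U share over positions was 0.114% at nt 21 (70 positions), 0.298% at nt 22 (56), 1.06% at nt 23 (44), 11.9% at nt 24 (25) and 40.8% at nt 25 (7). In the body of the arms, nt 2 to 18, the mean U share was 0.0623% ± 0.0145 (SD, n = 8 libraries).

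The rise was also seen by distance from the end of each arm. That end is the nucleotide after which reads fell most in these same libraries. Whether the rise follows the end or the nucleotide number was not tested. With the most common 3′ end in the unoxidised libraries as position 0, the median U share was 0.172% at position −1 (60 positions), 0.384% at position 0 (58), 33.4% at position +1 (29) and 35% at position +2 (16). Position +1 held at least 10% U in 20 of its 29 arms, and position 0 in 0 of 58. A followed the same pattern at a lower level, with medians of 0.0924% at −1 (63 positions), 0.248% at 0 (75) and 19.9% at +1 (38). Few reads reached these positions: the median at +1 was 5.60% of the arm's reads for U and 4.42% for A. After oxidation the median share at +1 was 24.9% for U (11 positions) and 8.37% for A (17 positions).

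**Figure D1:**
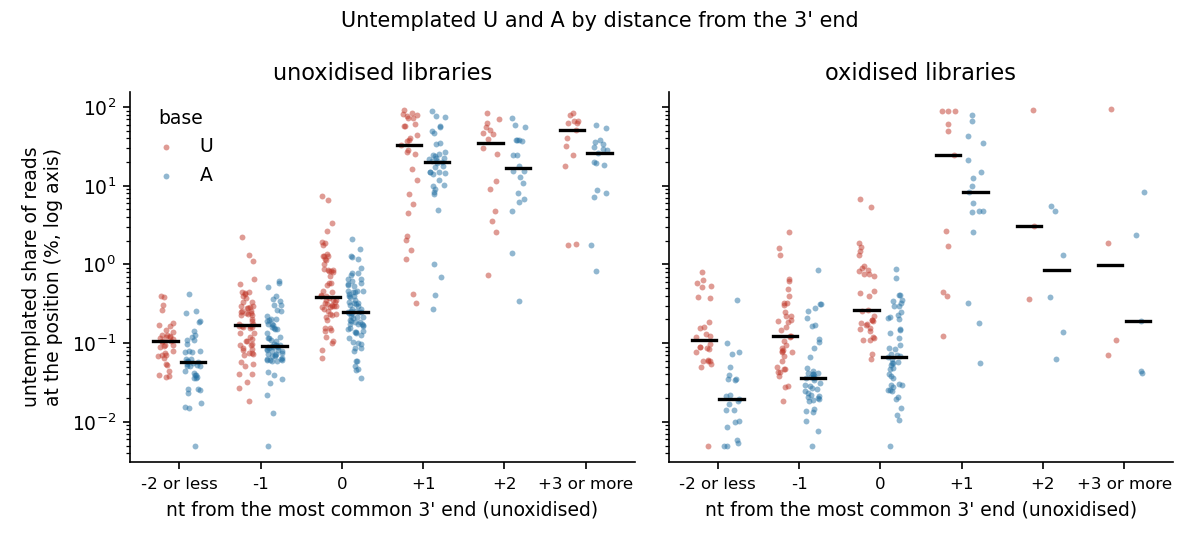
Untemplated U and A share of the reads at a position (%, log axis) against the distance in nt from the arm's most common 3′ end in the unoxidised libraries. Each point is the mean of a position over the 8 libraries of its group, shares under 0.005% are drawn at 0.005%, and bars are medians. In the unoxidised panel the median U share steps from 0.384% at 0 to 33.4% at +1.

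The highest U shares belonged to 3p arms, and mirtrons were among them. miR-1008-3p, a mirtron arm, had U in place of G at nt 23 in 91.2% ± 3.44 (SD, n = 8) of 2735 to 3921 reads per library. Its shares were 93.5%, 94.2%, 92.2%, 90.8%, 92.1%, 83.1%, 92.3% and 91.2% from 0 to 24 h and 93.1% without s4U and IAA. The reads with this U were 35.7% of all reads of the arm, the highest such share among the 10 positions with the highest U.

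The mirtron arm miR-1003-3p had U at nt 23 in 84.9%, 86.5%, 84.5%, 81.1%, 84.2%, 72.6%, 82.5% and 80.3% of the reads from 0 to 24 h, a mean of 82.1% ± 4.35 and 6.40% of the arm's reads. The mirtron arm miR-1006-3p had 73.1% ± 4.87 at nt 24, from 65.8% to 78.9% on as few as 269 reads. In both the templated bases before this position read AG, the end of the intron. The 2 other measured mirtron 3p arms with a value at nt 23, miR-1007-3p and miR-1012-3p, had 0.443% ± 0.154 and 0.293% ± 0.250, and in them nt 23 was the most common 3′ end itself. The next nucleotide of miR-1007-3p, just under the limit with 195 reads in its lowest library, had 83.8% U.

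High U was not particular to mirtrons. miR-184-3p, 1 of the abundant arms of S2 cells, had 85.2% ± 4.91 at nt 24 and 84.1% ± 7.26 at nt 25, beyond its usual 22 nt. miR-965-3p had 84.1% ± 5.79 at nt 23, with a lowest value of 70.8%, a median of 85.8% and a highest of 88.7%. miR-995-3p, processed from an intron of Cdk2, had 80.5% ± 10.3 at nt 22, from 57.4% to 87.5%. miR-970-3p had 77.6% ± 4.74 at nt 22, and miR-11-3p, which lies in E2f1, had 72.5% ± 6.49 at nt 23. In these arms the reads with U at these positions were 0.398% to 5.17% of all reads. In 10 of the 10 positions the 6 h library was the lowest of the 8.

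The highest A shares lay at other arms. miR-279-3p, a repressor of neuronal fate in the fly, had A in place of U at nt 23 in 90.3% ± 7.70 of the reads (72.1% to 94.9%), which was 4.63% of the arm. miR-8-5p had 78.2% ± 14.4 at nt 23, miR-34-3p 75.8% ± 11.8 at nt 24 and miR-306-5p 73.4% ± 10.2 at nt 23. miR-2c-3p had 59.2% ± 15 at nt 21, but its first 18 nt are those of miR-2a, whose templated base at nt 21 is A. Its reads and those of miR-2a cannot be told apart there, so this A need not be untemplated. At the first position past the end, 18 arms allowed both bases to be seen, and U was the higher in 13 of them (8 of 11 3p and 5 of 7 5p arms).

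**Figure D2:**
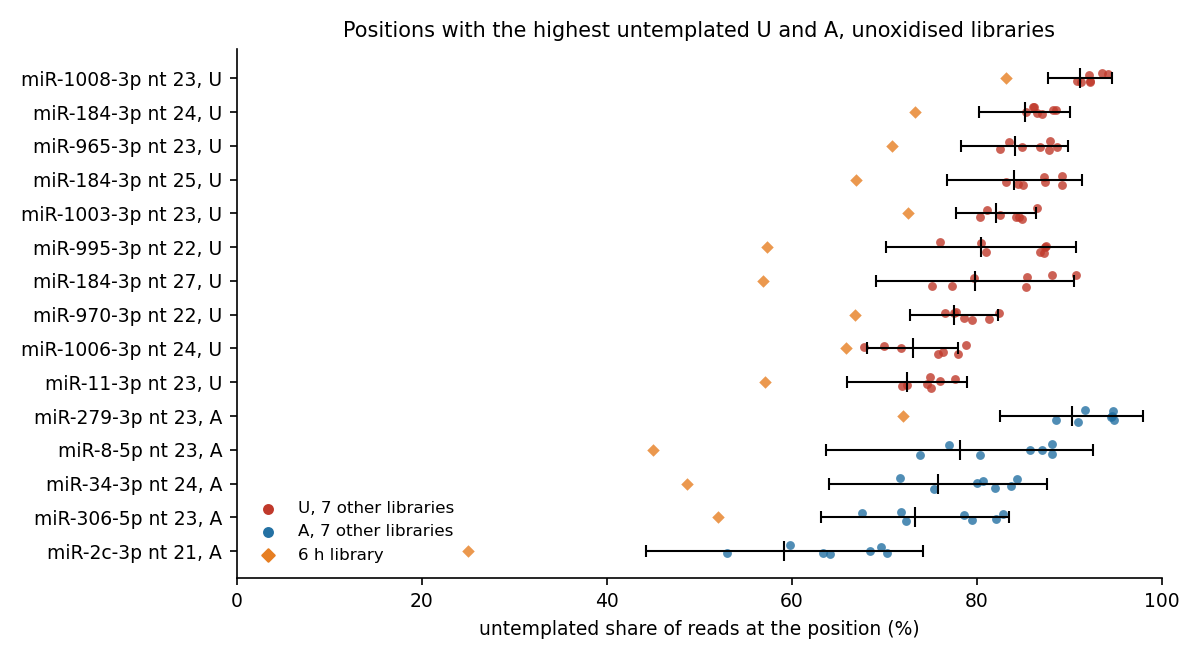
Untemplated share (%) at the 10 positions with the highest U and the 5 with the highest A in the unoxidised libraries. Points are single libraries, diamonds the 6 h library, and bars the mean with its SD over 8 libraries. The A of miR-2c-3p at nt 21 is the templated base of miR-2a there and need not be untemplated. The 6 h library is the lowest at all 15 positions shown, at 83.1% for miR-1008-3p and 24.9% for miR-2c-3p.

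The kind of arm and the neighbouring base were compared over positions. U reached 10% at 34 of 109 positions in 3p arms and at 8 of 102 in 5p arms, and all 13 positions with over 50% U were in 3p guides. With paralogous entries and entries over 50% left out, the mean U share per library was 9.39% ± 1.59 in 3p and 3.63% ± 0.331 in 5p arms (difference 5.76 points, higher in 8 of 8 libraries). The 8 libraries measure the same arms, so this agreement does not cover the spread between arms. With the reads of all positions summed, the difference was 0.0386 points. Without 0.5, 1, 3 and 6 h it was 2.18 points, over a different set of positions, because the read minimum and the 50% rule were applied again to the libraries left. A also stood higher in 3p arms, at 8.20% ± 0.212 against 5.11% ± 0.298 (8 of 8 libraries), but with summed reads the sign turned (−0.0476 points).

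Guides, the more abundant arm of a hairpin, had a median U share of 0.431% (144 positions) and passengers 0.255% (67 positions). At position +1 the median U share was 42.6% where the templated base before it is G (8 arms), 38.7% after U (15 arms), 22.7% after C (4 arms) and 4.93% after A (2 arms). These ranges overlapped, from 1.51% to 91.2% after G and from 0.420% to 84.1% after U. They are descriptions of few arms without a test.

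The comparison of the groups asks which 3′ ends are found among the small RNAs that resist periodate. Untemplated U fell or rose depending on the arm, whereas untemplated A mostly fell. Of all 447 entries, 31 were higher (7.91% of the entries of all positions were higher) and 217 lower (43.6% of all were lower). Of 104 U entries tested in both groups, 21 were higher after oxidation (20.2%, where 15.6% of the U entries of all positions were higher) and 31 were lower (29.8%, against 19.4% of all U entries). Of 126 A entries, 8 were higher (6.35%, against 4.61% of all A entries) and 74 lower (58.7%, against 51.5%). The test was edgeR's quasi-likelihood test on mismatched and other reads with labelling time as a block, with adjusted p under 0.05 over all 3679 entries of all positions.

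The share of A entries that fell was thus near that of A entries anywhere in the arms. The median change in log2 odds was −1.23 for A, −1.28 for G, −0.93 for C at templated A or G and −0.21 for U. G was higher at 1 and lower at 48 of 98 entries (8.56% of all G entries were higher and 46.1% lower, 54.7% in either direction). C at templated A or G was higher at 0 and lower at 26 of 64 (5.74% of all such entries were higher and 43.4% lower, 49.1% in either direction). C at templated U was higher at 1 and lower at 38 of 55 (1.08% of all such entries were higher and 70.3% lower). Without the 4 times with raised G, U was higher at 14 and lower at 21 of 103 entries (11.2% and 13.5% of all U entries in that fit), and A higher at 7 and lower at 42 of 109 (4.39% and 40.9% of all A entries).

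Passenger and guide arms differed in their counts, and this difference itself was not tested. Of 39 U entries in passengers, 15 were higher (38.5%, against 15.7% of passenger U entries over all positions) and 7 lower (17.9%, against 19.3%) after oxidation. Of 65 in guides, 6 were higher (9.23%, against 15.5% of guide U entries over all positions) and 24 lower (36.9%, against 19.4%).

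The largest rise was untemplated A in miR-9c-5p, of a family known for neural functions. At nt 23 its A share was 21%, 21.7%, 19.6%, 21.1%, 21.6%, 21.4%, 19.4% and 19.5% from 0 to 24 h without oxidation, and 78.6%, 71.7%, 78.7%, 81.4%, 76.7%, 76.8%, 84.6% and 80.4% with it. The groups did not overlap. The change in log2 odds was 3.83 ± 0.26 (SE, edgeR adjusted p = 5.78e-09), higher in 8 of 8 pairs. As a share of the arm's reads, those with A at nt 23 were 1.95% and 2.38%, and those that reached nt 23 were 9.40% and 3.03%.

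The passenger of bantam, an miRNA that promotes growth, had U in a larger share of the reads that reached nt 24 after oxidation. Such reads were 1.01% of the arm's reads without oxidation. The bantam-5p share at nt 24 was 33.6% to 74.8% (median 66.7%) without oxidation and 86.2% to 91.1% (median 87.8%) with it, so that the groups did not overlap. Its change was 2.19 ± 0.33 (edgeR adjusted p = 3.59e-05), and 1.39 ± 0.34 without the 4 times with raised G.

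Other rises of U began from low shares. In miR-14-5p, the passenger of an miRNA that limits cell death, U at nt 21 went from 0.293% ± 0.0748 to 1.63% ± 0.249 (2.52 ± 0.22, edgeR adjusted p = 9.27e-08). In miR-980-5p at nt 24 it went from 0.353% ± 0.0991 to 1.87% ± 0.549, and in miR-275-5p at nt 22 from 0.572% ± 0.236 to 2.61% ± 0.761. In each of these 3 positions the lowest oxidised library lay above the highest unoxidised one. The templated base there is C.

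The strongest fall of U was in miR-34-5p, which the exonuclease Nibbler trims in flies. At nt 22 its U share was 6.59%, 5.92%, 6.09%, 5.98%, 6.46%, 6.12%, 4.95% and 4.48% from 0 to 24 h without oxidation and 0.456%, 0.256%, 0.182%, 0.690%, 0.415%, 0.359%, 0.478% and 0.363% with it. Every oxidised library lay below every unoxidised one, and the change was −3.99 ± 0.24 (edgeR adjusted p = 2.12e-09). The most common 3′ end of this arm also moved, from nt 21 without oxidation to nt 24 with it.

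miR-305-5p, whose most common end is nt 24 in both groups, had U at nt 24 in 1.18% to 1.42% of the reads without oxidation and in 0.0910% to 0.148% with it (−3.47 ± 0.19, edgeR adjusted p = 4.95e-10). Reads that reached nt 24 made up 46.3% of this arm without and 92.6% with oxidation. A at the same position fell by 4.52 on the log2 odds scale. In miR-34-5p A at nt 25 fell from 28.8% ± 3.13 to 8.34% ± 1.56, and in miR-11-3p A at nt 22 fell from 0.570% ± 0.144 to 0.0469% ± 0.0206. miR-263a-5p, the other arm of the Nibbler list, fell from 0.409% ± 0.191 to 0.116% ± 0.0485 at nt 24 (−1.74 ± 0.41, edgeR adjusted p = 0.00187).

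The largest falls of A were in miR-283-5p at nt 23, with 0.604% to 1.5% (median 0.689%) without and 0% to 0.0549% (median 0.0221%) with oxidation (−4.87 ± 0.39, edgeR adjusted p = 4.17e-08), and in miR-2a-2-5p at nt 23. The latter had 28.9%, 24.8%, 16.1% and 46.2% A in the 4 unoxidised libraries with raised G and 1.04% to 3.73% in the other 4, against 0.194% to 0.701% after oxidation. Its change of −4.75 ± 0.64 became −2.61 ± 0.47 without these 4 times. Of the 16 rises and falls named by size, 15 could be fitted without the 4 times, and 15 kept their direction and an adjusted p under 0.05.

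**Figure D3:**
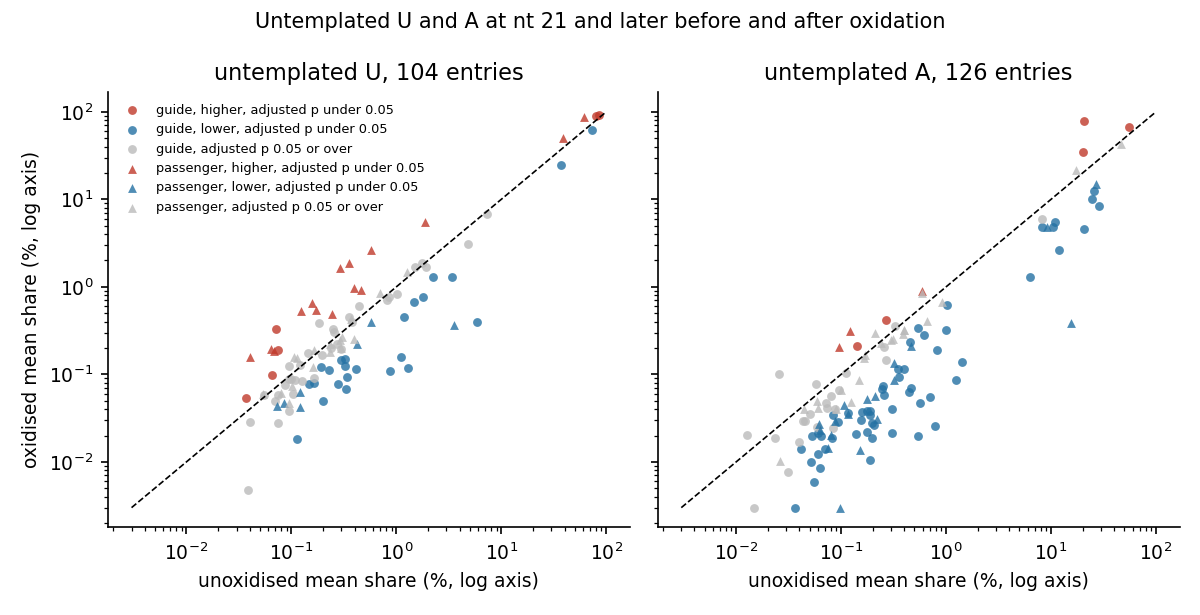
Mean untemplated share after oxidation against that without it (%, both axes log), for U and A entries at nt 21 and later tested in both groups. Each point is 1 entry averaged over 8 libraries a group, circles are guides and triangles passengers, and shares under 0.003% are drawn at 0.003%. Of U entries 21 lie higher and 31 lower by the test, of A entries 8 and 74.

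Some positions had high shares in both groups among the few reads that reached them. Without oxidation nt 22 of miR-995-3p was reached by 5.77% of the arm's reads. At +2 positions for U, such as nt 24 of miR-184-3p, the median was 0.782% without and 0.620% with oxidation. U at nt 22 of miR-995-3p was 80.5% ± 10.3 without and 89.7% ± 1.68 with oxidation, and U at nt 24 of miR-184-3p was 85.2% ± 4.91 and 91.7% ± 2.10. miR-11-3p moved from U to A at nt 23: U went from 72.5% ± 6.49 to 61.4% ± 3.03 (−0.74 ± 0.25, edgeR adjusted p = 0.0192) and A from 20.1% ± 0.723 to 35% ± 3.36 (1.09 ± 0.23, adjusted p = 0.000809). miR-8-3p, an abundant arm, did likewise at nt 24, with U at 36.7% ± 6.64 and 24.9% ± 4.28 and A at 55.2% ± 5.07 and 66.3% ± 3.89.

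Other tails did not change past the threshold. miR-277-3p, an arm known to be loaded into Ago2, had U at nt 23 in 0.820% ± 0.208 and 0.710% ± 0.130 (edgeR adjusted p = 0.484). miR-998-3p had U at nt 21, its most common end, in 7.32% ± 0.390 and 6.74% ± 1.06 (adjusted p = 0.585). miR-966-5p, measured after oxidation only because it had 35 to 92 reads without it, had 95.1% ± 1.97 U at nt 24.

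Averaged over positions, the change of U had no stable direction. The mean over 103 shared entries was 1.92% ± 0.130 without and 2.08% ± 0.132 with oxidation (difference 0.164 points, higher in 6 of 8 pairs, exact sign-flip test, adjusted p = 0.0391). It turned to −0.109 with summed reads and to −0.0858 without the 6 h pair, and 5 of the 8 single pairs left out ended the call. For A the means were 2.98% ± 0.394 and 2.55% ± 0.144 (difference −0.426 points, lower in 6 of 8 pairs, exact test, adjusted p = 0.0347), and leaving out any of 6 single pairs ended the call (−0.336 without 6 h). Without 0.5, 1, 3 and 6 h it was −0.157, with 4 pairs too few to pass the threshold. Each group's shares at nt 21 and later exceeded those at nt 2 to 18 in 8 of 8 libraries, for U and A alike.

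The time course asks how 3′ ends change as RNA made during labelling accumulates. In the unoxidised libraries no U or A entry passed the test against labelling time. Of all 769 entries at nt 21 and later without oxidation, 61 rose and 0 fell (10.4% of the entries of all positions rose and 0.0228% fell). Of 187 U and 211 A entries tested in the unoxidised libraries, 0 changed by edgeR (adjusted p under 0.05, slope on log2(1 + h)), 4 of each had an unadjusted p under 0.05, limma called 0, and DESeq2 called 2 U and 3 A entries. Over all positions 0.192% of U and 0.27% of A entries were called. The mean U share had Spearman's rho = −0.07 and Pearson's r = 0.279 with time (exact permutation, adjusted p = 0.977 and 0.765). Without the 12 and 24 h libraries, the farthest from the median time, r was −0.802. The libraries then left were 0 and 0.25 h, at 7.33% and 7.07% U, and those with raised G, at 4.67% to 6.30%. The mean A share had rho = −0.64 (exact permutation p = 0.0962, adjusted p = 0.192) and r = −0.87 (p = 0.0117, adjusted p = 0.0702). Without the 12 and 24 h libraries its r was 0.134, so that the relation rested on them. In the oxidised libraries the mean U share fell from 1.44% at 0 h to 1.04% at 24 h, with rho = −0.79 (exact permutation p = 0.0279, adjusted p = 0.168) and r = −0.65 (adjusted p = 0.267), which did not pass the correction over 6 relations, and r = −0.298 without the 12 and 24 h libraries. For the mean A share after oxidation rho was 0.64 (adjusted p = 0.192) and r was 0.48 (adjusted p = 0.461).

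The entries that rose without oxidation were all C entries. C in place of a templated U, where label is read, rose at 52 of 104 entries at nt 21 and later without oxidation (62.4% of such entries rose over all positions). Not all of this C was label: its mean share there was 1.61% at 0 h, 1.28% without s4U and IAA, and 3.06% at 24 h. At nt 2 to 18 it went from 0.0925% at 0 h to 2.02% at 24 h. The median slope among the 52 was 1.03 log2 odds per doubling of 1 + h. Over all 104 the median slope was 0.52, against 0.96 over the 496 entries at nt 2 to 18. C in place of a templated A or G, where the hairpin holds no U, rose at 9 of 114 entries of 8 arms, against 1.73% of such entries over all positions and 0 of 389 at nt 2 to 18 (10 of these had an unadjusted p under 0.05). The 9 were chosen after their values were seen. They were miR-1003-3p at nt 23, miR-1008-3p at nt 23, miR-11-3p at nt 23, miR-184-3p at nt 25, miR-283-5p at nt 24, miR-2b-1-3p at nt 24, miR-317-3p at nt 22 and nt 25, and miR-970-3p at nt 22.

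All 9 lay past the most common 3′ end, and at all 9 U was the most common mismatch. These counts describe the called entries only. They were not compared with the same counts over all tested entries of C at templated A or G. Whether 9 of 9 is unusual was thus not tested. In miR-2b-1-3p, a member of the miR-2 family, reads with C at nt 24 were, at 0, 6, 12 and 24 h, 7.74%, 18.7%, 20.7% and 23.1% of the reads with C or U, and 9.23% in the library without s4U and IAA. The number of reads with C rose from 154 to 472 while the U share was 1.38% before and 1.39% after 24 h of label. In the mirtron arm miR-1008-3p the same ratio was 0.313%, 1.22%, 0.869% and 1.32% at these times and 0.370% without s4U and IAA. In miR-184-3p at nt 25 it was 2.32%, 11.1%, 7.60% and 8.45% at these times, and 1.57% without.

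Over the 9 positions the ratio at 24 h was 2.63 to 6.11 times that at 0 h (median 3.64), while the U share at 24 h was 0.862 to 1.00 times that at 0 h. The edgeR slopes ran from 0.37 to 0.58 log2 odds per doubling of 1 + h, with adjusted p from 0.00271 to 0.0425. The 6 h library, with its raised G, had the highest C share at 5 of the 9. Without 6 h 9 of 9 were called, and without 0.5, 1, 3 and 6 h 7 of 9. The 9 were chosen by the same test, so these counts do not measure the part of those libraries in the rise, which was not tested. At the 3 positions with a templated A, where G can be seen as well, the G share at 24 h was 0.475 to 0.761 times that at 0 h.

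These 9 calls depend on the other entries of the fit and on the end points. With C at templated U left out of the fit, none of the 9 was called (adjusted p from 0.283 to 0.990), without 0 h 5, without 12 h 5 and without 24 h 6, and limma and DESeq2 each called 9 of 9.

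**Figure D4:**
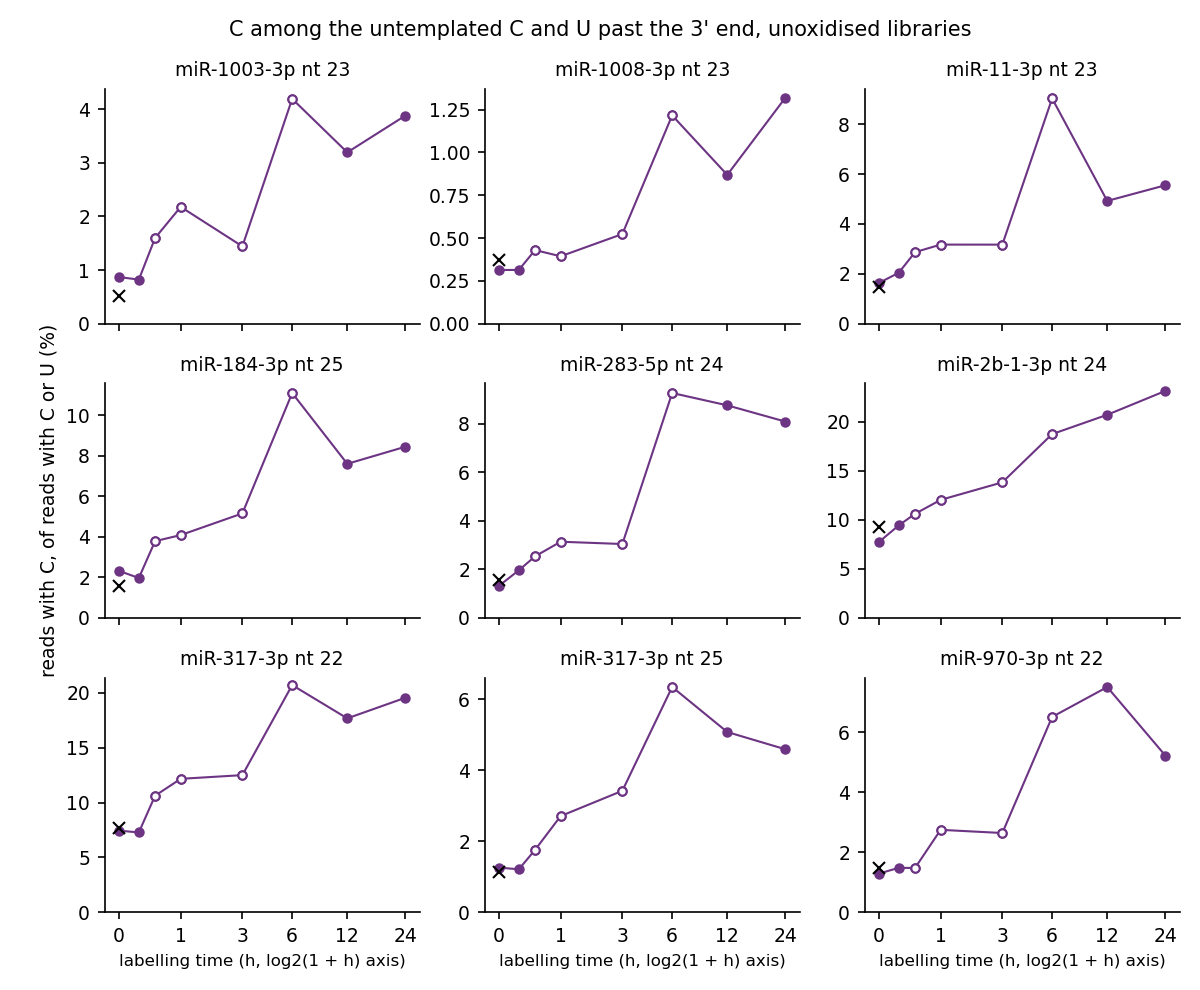
Reads with C as a share of reads with C or U (%) at the 9 positions past the 3′ end where C in place of A or G rose, against labelling time (h, on a log2(1 + h) axis) in the unoxidised libraries. Each point is 1 library, open points are the 0.5, 1, 3 and 6 h libraries with raised G, and the cross is the library without s4U and IAA. At miR-2b-1-3p nt 24 the share goes from 7.74% at 0 h to 23.1% at 24 h.

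Of all 303 entries tested in the oxidised libraries, 16 rose and 1 fell (20.8% of the entries of all positions rose and 0.143% fell). There 0 of 97 U entries changed with time (0.63% over all positions; 2 had an unadjusted p under 0.05, limma called 1 and DESeq2 0). A rose at 5 of 83 entries (6.02%, against 9.47% of A entries over all positions), and at all 5 the templated base was C. The shares were small, as in miR-11-3p at nt 21, with 0.00533% before and 0.0518% after 24 h of label (slope 0.42 ± 0.12, edgeR adjusted p = 0.0170). The others were bantam-5p at nt 22 and miR-33-5p, miR-33-3p and miR-276a-5p at nt 21. DESeq2 called 1 A entry and limma 3. C at templated A or G changed at 0 of 30 entries (2 had an unadjusted p under 0.05, and of all such entries 1.28% changed, 0.427% higher and 0.855% lower).

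C at templated U rose less often at the 3′ ends of the periodate-resistant RNA than in the body. Its mean share at nt 21 and later after oxidation was 0.633% at 0 h, before any label, and 0.947% at 24 h. At nt 2 to 18 it was 0.0562% and 1.28%. After oxidation C at templated U rose at 11 and fell at 1 of 41 entries at nt 21 and later (over all positions 89.1% of such entries rose and 89.3% changed), against 302 of 314 at nt 2 to 18. In the test of the difference in slope between the groups, 4 of 447 entries were called (0.895%, against 0.109% over all positions), each C at templated U with the smaller slope after oxidation. At nt 2 to 18 the same test called 0 of 333 such entries (71 had an unadjusted p under 0.05).

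The 4 were bantam-3p at nt 23, miR-995-3p at nt 21, miR-11-3p at nt 22 and miR-276a-3p at nt 22, and each of these is the most common 3′ end of its arm without oxidation. After oxidation it still was in 3 of them, whereas in bantam-3p the most common end was nt 19, and reads reaching nt 23 were 22.9% of the arm against 70.1% without oxidation. In bantam-3p, the most abundant strand of the bantam hairpin, C at nt 23 was, for 0, 12 and 24 h, 0.0375%, 1.09% and 1.56% of 2491284, 2154269 and 2260835 reads without oxidation. With it the values were 0.0792%, 0.0635% and 0.163% of 27786, 9454 and 12262 reads. Over the 5 templated U at nt 2 to 18 of the same arm the label was 1.79% at 24 h without and 1.57% with oxidation. The oxidised share at the end was thus far under that of the body, and the unoxidised one near it. The difference in slope was −1.01 ± 0.13 (edgeR adjusted p = 0.00127).

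In the other 3 arms, too, the 3′ position had less C at templated U after oxidation at 24 h, while their other values were ordered differently. At 24 h miR-995-3p had 0.739% at nt 21 without and 0.137% with oxidation, and 2.67% and 1.30% at nt 2 to 18 (slope difference −0.79 ± 0.10, edgeR adjusted p = 0.00127). miR-11-3p had 1.39% and 0.247% at nt 22, and 2.12% and 1.12% at nt 2 to 18 (−0.74 ± 0.11, adjusted p = 0.00646). miR-276a-3p had 1.75% and 0.342% at nt 22, and 2.45% and 1.67% at nt 2 to 18 (−0.67 ± 0.11, adjusted p = 0.0148). Leaving out single times gave 2 to 7 called entries.

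**Figure D5:**
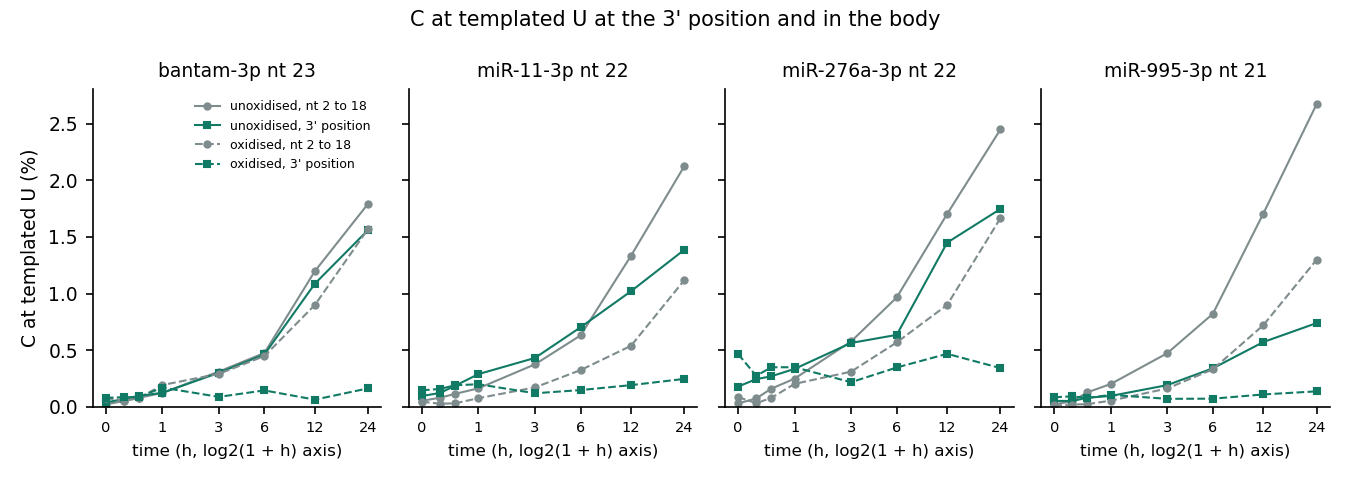
C at templated U (%) against labelling time (h, on a log2(1 + h) axis) for the 4 arms whose slope at the 3′ position differed between the groups. Squares are the named 3′ position, circles the templated U of nt 2 to 18 as 1 value, full lines the unoxidised and broken lines the oxidised libraries, 1 point a library. In bantam-3p the 3′ position ends at 1.56% without and 0.163% with oxidation, and the body at 1.79% and 1.57%.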

How the data were processed

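Small RNA was sequenced in 17 libraries. The authors deposited read counts per miRNA arm, position and base. Per the submitters' processing notes the tools were cutadapt 1.7.1, Bowtie 1.2.2 and Picard and the build was dm6; the number of mismatches the alignment allowed was not stated and limits which tails are seen. A tail base equal to the hairpin's base cannot be seen. Adapters carried 4 random nt at the ligation sites, per the labels' protocols.

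Of 148 arm and start pairs, 9 copies with the same nt 1 to 22 were left out. Hairpins were matched to BDGP6 by FlyBase identifier (94 of 96). Entries with at least 200 reads in every library and 20 mismatched reads over the libraries of a fit were tested with edgeR 4.0.16 (R 4.3.3) on paired mismatched and other counts, with Benjamini-Hochberg adjustment over all entries of all positions. Oxidation used labelling time as a block, because the RNA of each time was split between the groups. Time used a slope on log2(1 + h). Alternatives were limma 3.58.1 (log2 odds, 0.5 added), DESeq2 1.42.0, a read minimum of 1000, a minimum of 200 reads on average, 1 mismatched read, no block, and leaving out each time. Mean shares weight positions equally, without entries matching a paralog or over 50% in every library, with exact sign-flip tests over libraries (for arm classes these cover no spread between arms, and no p is given) or permutation tests. The scripts were tested on simulated data. It was not stated whether these random nt served to collapse PCR copies, so counting error is a lower limit.

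The positions named are the 10 highest U and 5 highest A shares of each group, the 8 largest rises and 8 largest falls of U and A after oxidation, the 5 steepest rises and falls with time, the 10 most abundant arms, and measured arms of the mirtron and Nibbler lists and miR-277-3p. Members and lists were chosen with earlier results of these data known. Leaving out 0.5, 1, 3 and 6 h together was chosen after seeing the data.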

Additional observations from a re-analysis of the deposited data

Results flagged for a closer look

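Of 76 groups of 8 libraries tested for 1 library apart from the other 7, 24 had one, where chance gives about 1 in 20 groups. The unoxidised 6 h library was the lowest for U in miR-1003-3p at nt 23 (72.6%), miR-1008-3p at nt 23 (83.1%), miR-11-3p at nt 23 (57.1%), miR-184-3p at nt 24 (73.3%), nt 25 (67.0%) and nt 27 (56.9%), miR-965-3p at nt 23 (70.8%), miR-970-3p at nt 22 (66.9%), miR-988-5p at nt 23 (32.7%) and miR-995-3p at nt 22 (57.4%). It was also the lowest for A in miR-279-3p at nt 23 (72.1%), miR-2c-3p at nt 21 (24.9%), miR-34-3p at nt 24 (48.7%) and miR-8-5p at nt 23 (45.0%). It was the highest for A in miR-283-5p at nt 23 (1.5%), miR-305-5p at nt 24 (1.78%) and miR-34-5p at nt 22 (1.43%) and for U in miR-965-5p at nt 21 (0.0874%).

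Among the other unoxidised libraries, 3 h was the highest for U in miR-14-5p at nt 21 (0.455%), 0.5 h the lowest for A in miR-2a-2-5p at nt 22 (14.5%), and 24 h the lowest for U in miR-306-3p at nt 22 (1.21%). Of the oxidised libraries, 0 h was the lowest for A in miR-282-3p at nt 23 (32.6%) and the highest for U in miR-965-5p at nt 21 (0.569%) and miR-988-5p at nt 23 (67.3%).

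The slope of C at templated U with time differed between the groups in 4 arms, by −1.01 log2 odds per doubling of 1 + h in bantam-3p at nt 23, −0.79 in miR-995-3p at nt 21, −0.74 in miR-11-3p at nt 22 and −0.67 in miR-276a-3p at nt 22.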

How the results depend on the processing

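Results for single positions did not change sign under any alternative run, but some became weaker. Of these runs 37 gave a weaker result and 393 the same. With single times left out, 52 were weaker and 424 the same. The number of entries changed by oxidation was 248 with the labelling time as replicate block, 202 with no replicate block and 141 without 0.5, 1, 3 and 6 h. Entries changing with time numbered 61 without oxidation (51 to 66 without single times, 0 with C at templated U left out) and 17 with it (9 to 21 without single times, 11 with DESeq2, 2 with C at templated U left out). Slopes that differed between groups numbered 4 (2 to 7 without single times, 0 without C at templated U).

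Differences between mean shares depended on the weighting of positions. U, oxidised minus unoxidised, was 0.164 points, but −0.109 with summed reads, −0.0578 with the median, −0.159 at 1000 reads, −0.0756 over reads at nt 18, 0.194 with uncertain entries kept (not past the threshold), −0.0645 without the 4 times and −0.0858 to 0.655 without single times. For A it was −0.426, −0.598 to −0.336 without single times and −0.157 without the 4 times. U in 3p minus 5p arms without oxidation was 5.76, 0.0386 with summed reads and 2.18 without the 4 times. With oxidation it was 0.195, 0.122 to 0.228 without single times and 0.194 without the 4. A in 3p minus 5p arms without oxidation was 3.09, −0.0476 with summed reads and 2.68 without the 4 times. With oxidation it was 1.01, 0.00164 with summed reads, −0.296 at 1000 reads, −0.00510 over reads at nt 18 and 1.08 without the 4. Ends minus body without the 4 times were 3.44 and 1.14 for U and 4.70 and 1.39 for A, with 4 pairs too few to pass the threshold.

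Spearman's rho with time, of which none passed, changed sign for U without oxidation (0.0714 with summed reads, 0.119 with the median, −0.357 to 0.393 without single times), for A without oxidation (0.143 with the median) and for C at A or G with oxidation (−0.0238, but 0.405 with the median, 0.429 at 1000 reads, 0.333 over reads at nt 18, 0.400 without the 4 times and 0 to 0.107 without single times). The cause of these changes was not tested. Depth limits the oxidised group, where 175 positions had enough reads against 321.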

Other observations

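The limit of 200 reads did not separate high from low shares. The 3 positions just inside it without oxidation, with 210 to 212 reads in their lowest library, had U shares of 1.35% (miR-1002-5p at nt 24), 56.9% (miR-33-3p at nt 23) and 63.1% (miR-276a-3p at nt 24). The 3 just outside it, with 185 to 196 reads, had 0% (miR-983-1-5p at nt 21), 83.8% (miR-1007-3p at nt 24) and 0.244% (miR-1003-5p at nt 21).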
